A study of Mus musculus with 8 samples.

Results

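The genes described here are 10 marrow niche factor genes of the mouse, chosen by symbol from the 52097 genes of the deposited table: Cxcl12, Kitl, Csf1, Il7, Angpt1, Vcam1, Jag1, Lepr, Pdgfra and Pdgfrb. All 10 were found, each under 1 Ensembl identifier. RNA-seq was available for 8 libraries of bone marrow cells sorted as CD48-CD150+LSK, the gate for haematopoietic stem cells, on day 3 after injection of pIpC, which mimics viral RNA and triggers interferon. The 5 control libraries carried the genotype Nup214fl/fl, in which both copies of the nuclear pore gene Nup214 are flanked by loxP sites, and the 3 knockout libraries carried Nup214fl/fl,Mx1-Cre, in which interferon switches on the Cre recombinase. All 8 were labelled as exposed to pIpC. Only the knockouts carried Cre, so an effect of Cre cannot be told apart from one of Nup214 loss. Mx1-Cre acts in many interferon-responsive cells, not in blood stem cells alone. The labels give neither the age of the mice nor whether libraries came from separate animals. The p-values therefore cover only the spread among these libraries, which may be technical.

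Haematopoietic stem cells are kept in the marrow by factors that neighbouring cells supply. Reticular stromal cells that carry the leptin receptor, together with endothelial cells, are the main known sources of the chemokine CXCL12 and of stem cell factor, the product of Kitl. CXCL12 holds stem cells in place through CXCR4, stem cell factor sustains them through KIT, and VCAM1 anchors cells that carry the integrin subunit ITGA4. Stem cells themselves are known to express Angpt1 and to have little or no Cxcl12.

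As deposited, 5 of the 10 genes rose in the knockout libraries, 2 fell, 1 was tested and did not pass, and 2 were too low to be tested. Cxcl12, Vcam1, Lepr, Kitl and Csf1 rose, and Angpt1 and Pdgfrb fell. The unit is FPKM, the number of fragments on a gene scaled by transcript length in kilobases and by mapped fragments in units of 1000000. A fold change is the knockout mean less the control mean of log2(FPKM + 1), a scale that shrinks the change of low genes. A call is an adjusted p under 0.05 from limma with Benjamini-Hochberg adjustment over the 15121 genes that reached 1 FPKM in 3 or more libraries. Of those genes 8.91% were called higher and 59.5% lower, and the median log2 fold change over all of them was -0.81, against 1.42 over the 8 niche factor genes tested. Kitl and Lepr passed the filter only through the 3 knockout libraries and so had to be higher. This also raises the median of 1.42, so the count of rises and that median are descriptions. The groups did not overlap in 9 of the 10 genes, 7 of them higher and 2 lower in the knockouts, where 7.89% of tested genes were higher and 54.5% lower without overlap. Of the 7, Kitl and Lepr were apart by the filter, and Jag1 and Pdgfra lie outside the tested genes. That count is therefore a description too.

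The general fall depended on scaling. The mitochondrial genome took between 5.02% and 6.66% of the summed FPKM of the controls and between 37.79% and 43.33% of that of the knockouts. These are shares of FPKM, not of fragments, and their part in the general fall was not tested. With rescaling to the total without the mitochondrial genome, the median over all tested genes was -0.44. After rescaling each library by the median ratio of its genes to their means, the median over all genes was -0.03, with 18.7% called higher and 17.1% lower. The same 5 niche factor genes were then called higher and the same 2 lower. The targeted gene Nup214 ranged from 34.23 to 65.22 FPKM over the controls and from 9.66 to 18.19 over the knockouts (log2 fold change -1.66 ± 0.25, SE, limma adjusted p = 0.000289). The fall of Nup214 was smaller after median-ratio rescaling, at -0.74 (limma adjusted p = 0.0483), and with quantile normalization, at -0.77 (0.0383). Depth, estimated from the step between low values, was 20.5 to 44.3 in controls and 16.2 to 22.7 in knockouts, in units of 1000000 fragments. The 12 stem cell markers, which include Ly6a (Sca-1), Cd34 and Meis1, summed to 932 to 1154 FPKM in the control libraries and 348.5 to 439.8 in the knockout libraries. Ly6a alone was at 319 to 354.8 FPKM in controls and 279 to 389.7 in knockouts. Most of the knockout sum was thus Ly6a, and the sums do not give the change of the other markers.

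**Figure D1:**
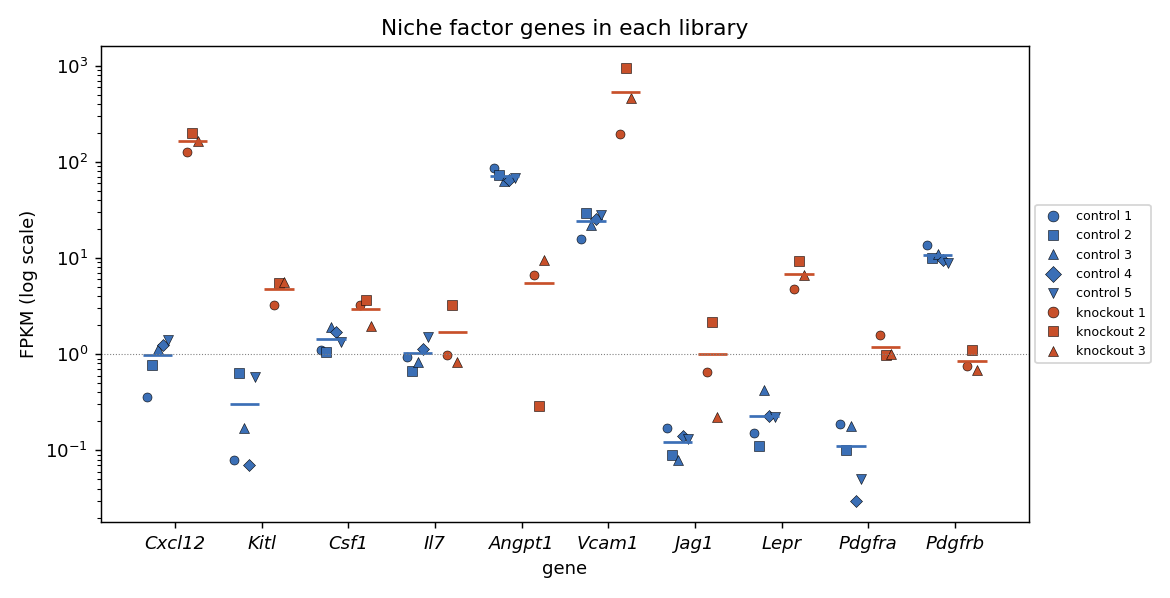
FPKM on a log axis of each of the 10 niche factor genes in the 5 control libraries (blue) and the 3 knockout libraries (orange); the marker shape is the replicate number, short bars are group means and the dotted line is 1 FPKM. Cxcl12 lies at 1.40 FPKM or below in every control and at 126 or above in every knockout, Angpt1 and Pdgfrb lie the other way, and Il7 overlaps.

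The promoters of Cxcl12 and Lepr, whose transcripts were both higher in every knockout library, are shown as the 250 bases before the RefSeq transcription start on GRCm38.p6, the assembly that mm10 names. Capitals mark the GC box GGGCGG, read on both strands, a common site of general promoter activators. The Cxcl12 window is chr6:117168285-117168534 and the Lepr window is chr4:101717157-101717406, both on the plus strand.
Cxcl12: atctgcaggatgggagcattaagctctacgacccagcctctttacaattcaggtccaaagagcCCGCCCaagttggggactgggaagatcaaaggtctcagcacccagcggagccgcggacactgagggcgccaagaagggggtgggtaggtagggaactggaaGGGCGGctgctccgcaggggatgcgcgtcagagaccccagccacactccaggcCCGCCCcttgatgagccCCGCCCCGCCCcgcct
Lepr: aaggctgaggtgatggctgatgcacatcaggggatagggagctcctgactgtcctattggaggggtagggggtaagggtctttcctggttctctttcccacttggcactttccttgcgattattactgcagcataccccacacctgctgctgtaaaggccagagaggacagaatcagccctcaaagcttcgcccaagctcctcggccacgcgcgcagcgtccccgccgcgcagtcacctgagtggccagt
The Cxcl12 window held 5 matches of the GC box, of which the pair nearest to the start overlap, and the first Lepr window held 0, where 32.7% of 32851 promoter windows of this length held at least 1. Neither window held the forkhead letters TGTTTAC (3.17% of all windows) or the NF-kB consensus (3.90%), each read on both strands. A second Lepr window, chr4:101717656-101717905, held 1 GC box. A window was also given for Kitl, with 3 GC boxes, for Csf1, with 2 GC boxes and 1 NF-kB match, and for Jag1 and Pdgfra, with none of these letters. These are matches of letters, and no binding was measured.

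Among the secreted factors, Cxcl12 moved furthest. Its gene (ENSMUSG00000061353) lies on chromosome 6 from 117168535 to 117181367 on GRCm38. Control replicates 1 to 5 were at 0.36, 0.77, 1.12, 1.24 and 1.40 FPKM, and knockout replicates 1 to 3 were at 126, 199 and 166. The knockout libraries were all far above the controls and within a range of 1.58-fold of each other. The log2 fold change was 6.38 ± 0.23 (SE, limma adjusted p = 5.81e-07), and 1 of the 15121 genes tested had a larger one. In level, Cxcl12 went from above 7.19% of the tested genes in the control mean to above 97.4% in the knockout mean. In a bulk sample, more cells of a type and more RNA per cell cannot be told apart, here and for every gene below.

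Kitl encodes stem cell factor, the ligand of KIT (ENSMUSG00000019966, chromosome 10 from 100015630 to 100100416). Its FPKM was 0.08, 0.63, 0.17, 0.07 and 0.58 in the controls and 3.25, 5.51 and 5.57 in the knockouts. The groups did not overlap, and the 2 highest knockout values were nearly the same. The log2 fold change was 2.14 ± 0.25 (SE, limma adjusted p = 6.98e-05). Kitl passed the filter only through the knockouts, and limma without a filter gave an adjusted p of 0.0159. At the estimated depth, the lowest control value, in replicate 4, corresponds to about 8.1 fragments if all came from the longest annotated transcript of 5648 nt, and the other control values to 20 to 121 fragments. The level in knockouts, 4.78 ± 1.32 FPKM (SD, n = 3), was above 45.6% of the tested genes, far below that of Cxcl12.

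Csf1, which encodes the macrophage growth factor M-CSF, rose by the smallest amount of the genes called. The 5 controls were at 1.10, 1.06, 1.91, 1.72 and 1.33 FPKM and the 3 knockouts at 3.25, 3.63 and 1.95. Knockout replicate 3 lay just above control replicate 3, so the groups were only just apart. The log2 fold change was 0.69 ± 0.23 (SE, limma adjusted p = 0.0228), and the call ended without control replicate 2 (adjusted p = 0.0552), knockout replicate 1 (0.0608) or knockout replicate 2 (0.0715) and without a filter (0.276).

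Il7, the lymphocyte growth factor interleukin 7, was not called. It was at 0.93, 0.67, 0.83, 1.14 and 1.52 FPKM in the controls and 0.99, 3.26 and 0.82 in the knockouts. The groups overlapped, and only knockout replicate 2 stood above the controls. The log2 fold change was 0.32 ± 0.30 (SE, limma adjusted p = 0.368), and without that library it was -0.07.

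Angpt1 went the other way. It encodes angiopoietin-1, the ligand of the receptor TEK (ENSMUSG00000022309, chromosome 15 from 42424723 to 42676977). It was the most abundant of the 10 genes in controls, at 87.0, 73.8, 63.15, 65.6 and 68.1 FPKM, a spread of 1.38-fold. The knockouts were at 6.71, 0.29 and 9.62 FPKM. Every knockout library was below every control, and replicate 2 was far below the other knockouts. The log2 fold change was -3.93 ± 0.60 (SE, limma adjusted p = 0.000551), with 36 of the tested genes lower, and it was -2.99 without knockout replicate 2. The knockout mean of 5.54 FPKM was 3.50 without replicate 3. The antisense gene Gm17473, which overlaps Angpt1 by 737 bases, ranged from 3.49 to 7.20 FPKM over the controls and from 0 to 1.32 over the knockouts, and without a stated strand setting reads from the overlap cannot be told apart.

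Of the molecules held on the cell surface, Vcam1 rose with the widest spread in FPKM. VCAM1 is an adhesion protein of stroma, endothelium and macrophages of the marrow (ENSMUSG00000027962, chromosome 3 from 116109949 to 116129688). The controls were at 15.8, 29.5, 22.0, 25.4 and 27.8 FPKM and the knockouts at 197, 957 and 458. All 3 knockouts were above all controls, and replicate 2 was 4.86-fold above replicate 1. The log2 fold change was 4.17 ± 0.44 (SE, limma adjusted p = 6.33e-05), with 24 tested genes higher, and the knockout mean of 537 FPKM was 328 without replicate 2. The mean was above 99.2% of tested genes in knockouts and 69.3% in controls. The antisense gene Gm43109, which overlaps Vcam1 by 1238 bases, was at 1.16 FPKM or below in every library.

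Jag1, a ligand of the Notch receptors, was too low for the model. Its FPKM was 0.17, 0.09, 0.08, 0.14 and 0.13 in the controls and 0.65, 2.14 and 0.22 in the knockouts. The groups were apart, but knockout replicate 3 was close to the controls, and the knockout mean of 1.0 was 0.435 without replicate 2. The exact two-sided permutation test over the 56 choices of 3 of 8 libraries gave p = 0.0179, the smallest it can give, for a difference of 0.72 on the log2(FPKM + 1) scale. With quantile normalization the exact p was 0.214, and limma without a filter gave an adjusted p of 0.294.

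The 3 receptors that mark niche cells divided. Lepr, the leptin receptor (ENSMUSG00000057722, chromosome 4 from 101717404 to 101815352), was at 0.15, 0.11, 0.42, 0.23 and 0.22 FPKM in the controls and 4.80, 9.30 and 6.59 in the knockouts. Every knockout library was above every control, with replicate 2 the highest, and the log2 fold change was 2.65 ± 0.23 (SE, limma adjusted p = 1.47e-05). Lepr passed the filter only through the knockouts, and limma without a filter gave an adjusted p of 0.00828. Lep, the ligand, was listed at 0 in 4 of 5 controls and in knockout replicate 1, and at 1.35 and 0.38 FPKM in knockout replicates 2 and 3.

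Pdgfra and Pdgfrb encode the paired receptors for platelet-derived growth factor, which mark mesenchymal cells and pericytes, and their transcripts lay in opposite directions. Pdgfra was at 0.19, 0.10, 0.18, 0.03 and 0.05 FPKM in the controls and 1.60, 0.97 and 1.01 in the knockouts, too low for the filter. Its groups were apart (log2 difference 0.97, with the smallest p the exact test allows, 0.0179), and limma without a filter gave an adjusted p of 0.0733. Pdgfrb was at 13.6, 10.1, 11.1, 9.56 and 8.96 FPKM in the controls and 0.76, 1.10 and 0.69 in the knockouts. The controls were close together and all far above the highest knockout, and the log2 fold change was -2.65 ± 0.19 (SE, limma adjusted p = 7.65e-06). Within each library, the log2 ratio of Pdgfra to Pdgfrb, in which a factor common to the library nearly cancels, was between -6.22 and -5.32 in controls and between -0.17 and 0.98 in knockouts. Controls thus had far more Pdgfrb than Pdgfra, and knockouts about as much of each.

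**Figure D2:**
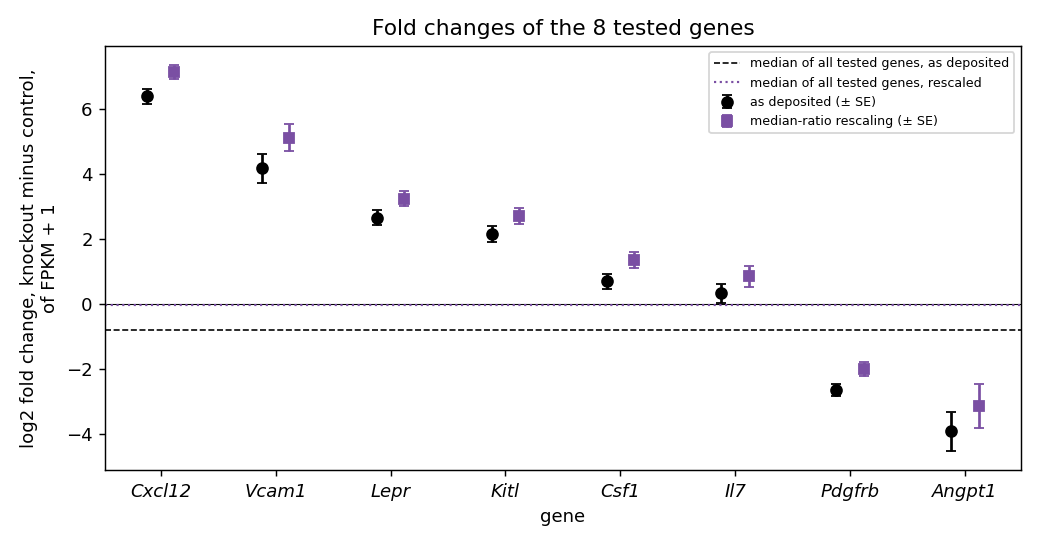
Log2 fold change, knockout minus control, of FPKM + 1 for the 8 tested genes, as deposited (circles) and after median-ratio rescaling (squares), with the SE from limma; the dashed and dotted lines are the medians over all 15121 tested genes, -0.81 and -0.03. Rescaling moved all 8 upward, Cxcl12 to 7.13 and Angpt1 to -3.15, and turned no direction.

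The order of the levels changed between the groups. In controls it ran Angpt1, Vcam1, Pdgfrb, Csf1, Il7, Cxcl12, Kitl, Lepr, Jag1 and Pdgfra by mean FPKM. The first 3 were apart from each other and from the rest, while every pair of neighbours from Csf1 on overlapped. In knockouts it ran Vcam1, Cxcl12, Lepr, Angpt1, Kitl, Csf1, Il7, Pdgfra, Jag1 and Pdgfrb. There only Cxcl12 and Lepr, at 164 and 6.90 FPKM, were neighbours whose ranges did not overlap.

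The genes that rose did not follow the 3 knockout libraries in 1 common way. Cxcl12, Lepr and Vcam1 were highest in replicate 2, then replicate 3, then replicate 1. This was also the order of the summed markers of reticular stroma, endothelium, macrophages, osteoblasts and megakaryocytes and of the other factors that niche cells supply. Angpt1 was lowest in replicate 2, as were the summed stem cell markers, whereas Pdgfrb was highest there. Pdgfra was highest in replicate 1. With 3 libraries these orders are a description.

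The sorting gate selects lineage-negative cells with Sca-1 and KIT and without CD48, and so is meant to leave out stroma, macrophages and T cells. The purity of the sort is not given in the sources used here.

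Markers of reticular stroma moved with Cxcl12, Lepr and Kitl. Of 14 such genes 8 rose, 0 fell and 6 were too low to be tested. Of the 8, 4 (Cdh11, Adipoq, Col1a1 and Dcn) passed the filter only through the knockouts and so had to be higher. Summed over the list, controls held 8.71 to 16.7 FPKM and knockouts 227 to 576. Among them Sparc, a matrix protein gene, went from 2.22 ± 0.937 FPKM (SD, n = 5) to 139 ± 74.8 (SD, n = 3), and Adipoq, which encodes adiponectin, from 0.318 to 37.2. The transcription factor genes Ebf3 and Foxc1, which reticular cells need, were too low to be tested. Ebf3 was at 0.02 to 0.17 FPKM in controls and 0.64 to 1.0 in knockouts, and Foxc1 at 0 to 0.04 and 0.05 to 0.54, so both were higher in every knockout. The lowest knockout value of Foxc1, in replicate 1, was below the 0.0617 FPKM that 1 fragment per kilobase gives there. Prrx1, of the same list, overlapped, at 0 to 0.25 FPKM in controls and 0.25 to 1.51 in knockouts. None of the 14 was at 0 throughout the knockouts. Relative to this sum, Lepr was between 1.22% and 2.81% in controls and between 1.62% and 2.11% in knockouts, so the groups overlapped. Kitl also overlapped, at 0.419% to 7.23% and 0.957% to 1.76%. Cxcl12 did not, at 2.92% to 10.3% in controls and 34.5% to 55.4% in knockouts. The part of stromal RNA in these results was not tested.

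Endothelial markers, a second known source of Kitl and Cxcl12, moved less evenly. Of 12 genes 8 rose and 2, Egfl7 and Pecam1, fell as deposited, whereas 9 were higher and 0 lower after median-ratio rescaling. Of the 8, 5 (Cdh5, Kdr, Flt4, Flt1 and Ptprb) passed the filter only through the knockouts and so had to be higher. The 12 genes summed to 239 to 317 FPKM in controls against 277 to 752 in knockouts. The controls' share came mostly from Egfl7 and Pecam1, which blood stem cells also express. Plvap, a protein of fenestrated endothelium, went from 3.75 ± 1.22 to 72.4 ± 31.0 FPKM (limma adjusted p = 8.81e-06), and Cldn5, a tight junction protein of endothelium, from 1.93 ± 0.761 to 45.8 ± 20.2. Kitl was between 0.0252% and 0.229% of the endothelial sum in controls and between 0.733% and 1.88% in knockouts. This separation depends on Egfl7 and Pecam1 in the sum, and shares without them were not computed. The part of endothelial RNA in the rise of Kitl and Cxcl12 was not tested.

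Macrophage markers moved with Vcam1. Of 15 genes 12 rose, 0 fell and 2 were too low to be tested, and they summed to 374 to 501 FPKM in controls against 1938 to 7397 in knockouts. Hmox1, the haem oxygenase of macrophages that clear red cells, went from 17.6 ± 5.12 to 547 ± 266 FPKM. Relative to this sum, Vcam1 was between 3.37% and 7.44% in controls and was 10.2%, 12.9% and 11.3% in knockout replicates 1 to 3. The share thus differed little among the knockouts while Vcam1 itself differed by 4.86-fold. The part of macrophage RNA in the rise of Vcam1 was not tested.

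Stem cell markers moved with Angpt1. Of 12 genes 9 fell as deposited and 1 rose, Fgd5, and after median-ratio rescaling 7 were lower and 2, Fgd5 and Ly6a, were higher. Over all tested genes 59.5% were lower as deposited and 17.1% after rescaling. Meis1, a transcription factor of stem cells, had a log2 fold change of -3.95, close to that of Angpt1, and Hlf and Mecom had -3.99 and -2.72. Relative to the stem cell sum, Angpt1 was between 6.32% and 7.54% in controls and between 0.0832% and 2.69% in knockouts, and Pdgfrb was between 0.845% and 1.18% and between 0.173% and 0.316%. Most of that sum in knockouts was Ly6a, which was between 279 and 389.7 FPKM there and between 319 and 354.8 in controls. Shares of the sum without Ly6a were not computed. The shares given therefore do not show that Angpt1 or Pdgfrb fell more than the other stem cell markers. The part of fewer stem cells in these falls was not tested.

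**Figure D3:**
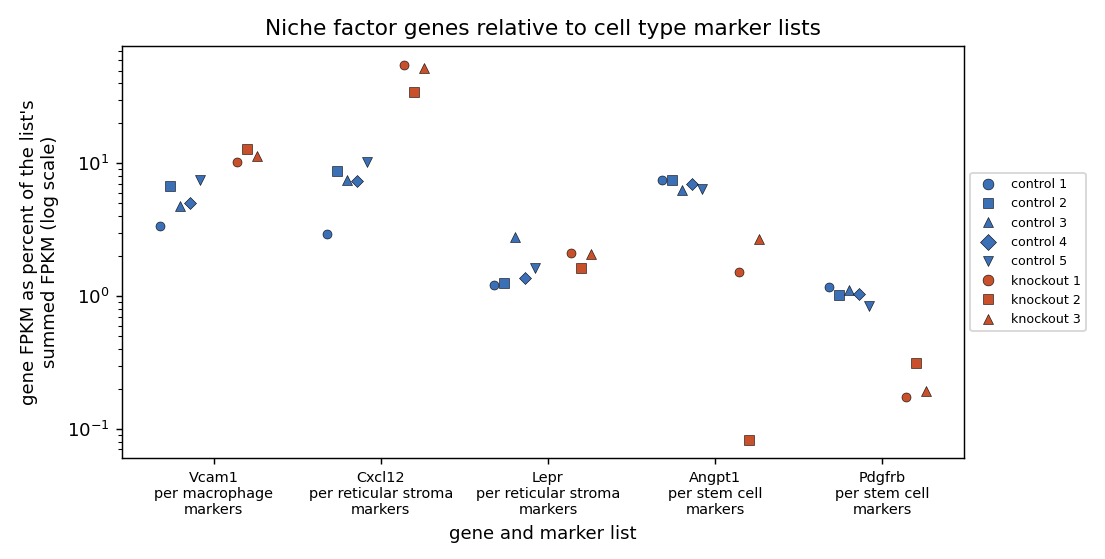
FPKM of Vcam1, Cxcl12, Lepr, Angpt1 and Pdgfrb as a percent, on a log axis, of the summed FPKM of a marker list in the same library, for 5 controls (blue) and 3 knockouts (orange); the marker shape is the replicate number. Lepr overlaps between the groups, at 1.22% to 2.81% and 1.62% to 2.11%, whereas the other 4 genes do not. Most of the stem cell sum in knockouts is Ly6a, which was not called lower. The separation of Angpt1 and Pdgfrb therefore rests on that gene.

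The genes with the closest profiles were sought over the 8 libraries, by root-mean-square distance in log2(FPKM + 1) from the control mean. For Cxcl12 they were Fabp4 (distance 0.45), mt-Tl2 (0.50), a very short mitochondrial tRNA gene listed at 0 in all controls, and Sparc (0.71). For Vcam1 they were Fcna, which encodes a ficolin (0.23), Cd36, a scavenger receptor (0.29), and Slc40a1, the iron exporter ferroportin (0.31). In knockout replicates 1 to 3 Fcna stood at 159, 606 and 378 FPKM, the same order as Vcam1. For Angpt1 they were Adgrg1 (0.27), Lmo2, a transcriptional regulator of blood stem cells (0.33), and Sdsl (0.33), and for Pdgfrb they were Ankrd13a (0.11), Repin1 (0.15) and Kcng1 (0.15). Lmo2 was at 19.5, 3.92 and 48.8 FPKM in the knockouts, lowest in replicate 2 as Angpt1 was.

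The partners of these factors moved in both directions, and their split depended on scaling. Of 28 ligands, receptors and processing genes, 23 were tested, 6 rose and 8 fell as deposited, with a median log2 fold change of 0.15. After median-ratio rescaling 11 were higher and 2, Kit and Tslp, were lower, with a median of 0.86. Among all tested genes 8.91% were higher and 59.5% lower as deposited, and 18.7% and 17.1% after rescaling. A fall as deposited was thus what most tested genes showed, and these counts are a description. Kit, the receptor of stem cell factor, fell from 124 FPKM or above in every control to 9.12, 3.46 and 23.4 in the knockouts (limma adjusted p = 0.000123), and Tslp, an interleukin-7-like cytokine, went from 5.34 ± 1.35 to 0.487 ± 0.15 FPKM. Cxcr4 went from 16.7 ± 3.93 to 8.74 ± 3.22 FPKM (limma adjusted p = 0.0111), with overlapping groups, and was at -0.01 after rescaling. Dpp4, the peptidase that cleaves CXCL12, had a log2 fold change of -1.09 (limma adjusted p = 0.00209) and of -0.17 after rescaling. Notch1 and Notch2, receptors for JAG1, had -1.34 and -1.09, and -0.47 and -0.20 after rescaling, when neither passed. Tie1 and Pdgfd also fell as deposited and did not pass after rescaling.

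Partners that rose under both scalings were Itgb1, Itga9, Il2rg, Il7r, Pdgfb and Pdgfc, the last of which passed the filter only through the knockouts. Itgb1, the shared beta subunit of the VCAM1 receptor, went from 49.5 ± 8.23 to 76.8 ± 10.4 FPKM (SD, n = 5 and 3; limma adjusted p = 0.00819). Itga4, its alpha subunit, was at 62.0 ± 5.54 and 58.3 ± 3.00 FPKM and did not pass (limma adjusted p = 0.561), but was higher after rescaling by 0.86 (adjusted p = 0.00043). Il2rg and Il7r, the chains of the interleukin 7 receptor, went from 185 ± 24.2 to 272 ± 23.3 FPKM and from 16.7 ± 6.94 to 27.1 ± 2.78, with overlapping groups for Il7r. T and NK cell markers, which include cells that carry these chains, summed to 381 to 963 FPKM in controls against 1955 to 2656 in knockouts, with 13 of 14 higher and 0 lower; their part in the rise of Il7r and Il2rg was not tested. Pdgfb, a ligand of both PDGF receptors, went from 0.888 ± 0.796 to 3.84 ± 0.491 FPKM. Il34, a second ligand of the M-CSF receptor, was listed at 0 in all 5 controls and was at 0.27, 2.56 and 1.02 FPKM in the knockouts.

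Ratios of genes within a library, in which a factor common to the library cancels apart from an added 0.1 FPKM, were compared for 10 pairs. The log2 ratio of Cxcl12 to Cxcr4 averaged -4.05 ± 0.44 over the 5 controls (SD) and 4.25 ± 0.89 over the 3 knockouts (SD). The exact permutation test, two-sided, gave p = 0.0179, or 0.0223 adjusted over the 10 ratios. Receptor transcripts thus exceeded those of the ligand in all 5 controls, and the ligand's exceeded them in all 3 knockouts. The ratio of Kitl to Kit was between -9.92 and -7.46 in controls and between -2.05 and 0.66 in knockouts, and that of Vcam1 to Itga4 between -1.85 and -0.95 and between 1.68 and 4.11. Angpt1 to Tek lay between 3.78 and 4.25 in controls and between -4.19 and 1.30 in knockouts. Groups were apart, with the same p of 0.0179 as the smallest possible, in 8 of 10 pairs. The exceptions were Il7 to Il7r (difference -0.32, exact p = 0.589) and Csf1 to Csf1r (0.09, exact p = 0.857), for which the test does not show that the ratios were alike. The pairs were chosen with earlier results of these data known, and some share a gene. How often other pairs of genes were apart was not computed, so the count of 8 is a description. Tek itself, which stem cells and endothelium share, was at 4.24 ± 0.470 and 4.97 ± 1.78 FPKM and did not pass as deposited (limma adjusted p = 0.544), but was higher after rescaling by 0.95 (limma adjusted p = 0.0091).

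**Figure D4:**
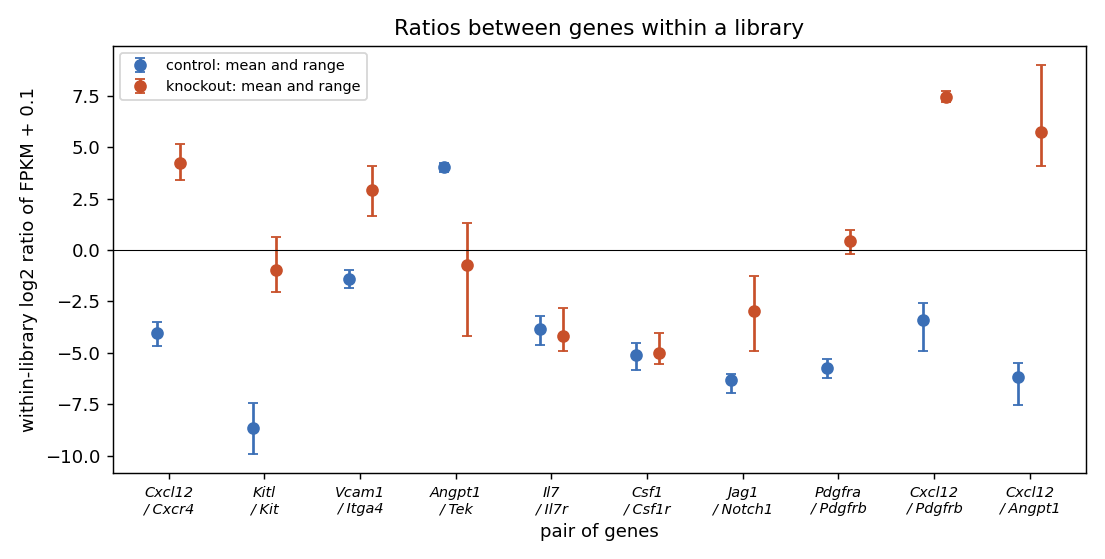
Log2 ratio of FPKM + 0.1 between the members of 10 pairs of genes within a library, as the mean and the range over 5 controls (blue) and 3 knockouts (orange). Cxcl12 to Cxcr4 lies at -4.68 to -3.48 in controls and 3.39 to 5.16 in knockouts, and Il7 to Il7r and Csf1 to Csf1r overlap.

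Other factors that niche cells supply moved in both directions. Of 34 such genes 20 were tested, 10 rose and 6 fell as deposited, with a median log2 fold change of 0.67. Of the 10, 4 (Bmp4, Fgf7, Sele and Lama4) passed the filter only through the knockouts and so had to be higher, which also raises the median. After median-ratio rescaling 11 were higher and 0 lower, with a median of 1.17, so the falls depended on scaling. The shares among all tested genes were 8.91% higher and 59.5% lower as deposited, and 18.7% and 17.1% after rescaling. These counts are a description too. Gas6, a ligand of the receptors AXL and MERTK, went from 4.21 ± 1.0 to 39.6 ± 26.1 FPKM (limma adjusted p = 0.000121), and the knockout mean was 25 FPKM without replicate 2. Igf1, insulin-like growth factor 1, went from 6.52 ± 1.40 to 103 ± 76.8 FPKM, and to 61.8 without knockout replicate 2. Fgf7 went from 0.016 to 1.90 FPKM, and to 1.22 without knockout replicate 1. Hgf, hepatocyte growth factor, and Il15 fell by 1.68 and 1.27 on the log2 scale as deposited. Thpo, the thrombopoietin gene, which is made mainly in the liver, was at 0.20 FPKM or below in every library.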

How the data were processed

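The authors deposited 1 table of FPKM values per gene for the 8 libraries and no counts. Cufflinks 2.1.1, Bowtie 0.12.9, HTSeq, DESeq2 and the build mm10 are listed, with no role, per the submitters' processing notes. The strand setting, annotation release and filters are not given in the sources used here. Per the labels' protocols, mRNA was amplified by Geo-seq and libraries were made with a transposase kit.

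Groups were taken from titles and genotypes. Symbols were matched to all 52097 identifiers, and coordinates come from GENCODE M21, whose assembly GRCm38 is the one called mm10. Promoter sequences are from RefSeq on GRCm38.p6 and were used for 6 of the 10 genes.

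The groups were compared on log2(FPKM + 1) by limma 3.58.1 (trend, robust; R 4.3.3), a model tested on simulated data. Genes below the filter and ratios (pseudocount 0.1) were compared by exact permutation. Depth was estimated from genes with 1 transcript of 600 to 2500 nt, whose low values fell within 0.15 fragments of a whole number in 61.8% to 88.3% of cases.

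The genes, lists and rules were chosen with earlier results of these data known. Named genes were the 10 genes, Nup214, their partners, the 3 smallest p in each other list and the 3 closest profiles to Cxcl12, Vcam1, Angpt1 and Pdgfrb. Ebf3, Foxc1, Prrx1, Egfl7, Pecam1, Ly6a, Cd34, Fgd5, Hgf, Il15, Thpo, Pf4, Runx2, Rgs5, the genes named as passing the filter only through the knockouts and those that overlap a member were added after their values were seen. Alternatives changed the pseudocount, filter, scaling, libraries and replicate block.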

Additional observations from a re-analysis of the deposited data

How the results depend on the processing

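Cxcl12, Kitl, Lepr, Vcam1, Angpt1 and Pdgfrb kept their direction and their side of the threshold under each of 15 alternatives, with log2 fold changes of 6.23 to 7.33, 2.04 to 3.83, 2.44 to 4.44, 3.62 to 5.11, -4.59 to -2.99 and -3.51 to -2.01. Kitl and Lepr entered every filtered fit only through the knockouts, so for them those fits add little. Without a filter their limma adjusted p was 0.0159 and 0.00828. The count of the 10 genes called higher was 4 or 5 and the count called lower was 2 under every alternative. The call of Csf1 was the one lost among the 7: its adjusted p ranged from 0.0019 to 0.276. Leaving out 1 library at a time gave -0.07 to 0.54 for Il7, -0.40 to 0.37 for the Csf1 to Csf1r ratio and -0.99 to 0.06 for the Il7 to Il7r ratio, none of which had passed a test, and the Csf1 to Csf1r ratio was -0.19 with a pseudocount of 1. The replicate numbers did not pair the libraries, since deviations of same-numbered libraries from their group means correlated at -0.035, 0.028 and -0.043 across genes. With a replicate block 4 genes were called higher and 2 lower, and Csf1 was not called (adjusted p = 0.118). Quantile normalization and rescaling to the total without the mitochondrial genome put the median of all tested genes at -0.24 and -0.44. The counts of partners and of other factors after rescaling, and the shares of marker sums, were chosen after seeing the data. Without knockout replicate 2 the partners were 6 higher and 7 lower and the other factors 11 and 5. With 3 knockouts the exact test cannot go below 0.0179, and the lowest values rest on few fragments, such as about 4.2 for Pdgfra in control replicate 4. Only FPKM was analysed here, so a fall in the absolute amount of RNA cannot be seen.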

Other observations

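Markers of bone-forming cells were also higher in the knockout libraries. Of 8 osteoblast genes 5 were tested, 4 rose and 1, Runx2, fell as deposited. The 4 that rose (Bglap, Bglap2, Alpl and Ibsp) passed the filter only through the knockouts and so had to be higher, and their values are a description. Bglap, which encodes osteocalcin and has near-identical neighbours that can share reads, went from 0.102 ± 0.228 FPKM (SD, n = 5) to 15.1 ± 3.27 (SD, n = 3), and Bglap2 from 0.086 to 9.66. Alpl, the alkaline phosphatase of osteoblasts and stroma, went from 0.480 ± 0.255 to 9.82 ± 4.25 FPKM. Runx2, which early blood cells also express, ranged from 34.85 to 53.02 FPKM over the controls and from 5.05 to 15.9 over the knockouts, and it did not pass after median-ratio rescaling.

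Of 8 genes of pericytes and smooth muscle 4 were tested and rose, but 3 of them (Acta2, Tagln and Mcam) passed the filter only through the knockouts and so had to be higher. Mcam, a surface protein of perivascular cells, went from 0.172 ± 0.136 to 3.84 ± 1.32 FPKM, Kcnj8 from 0.548 ± 0.405 to 11.5 ± 6.08 and Acta2, smooth muscle actin, from 0.204 ± 0.204 to 3.12 ± 0.649. Rgs5, a defining pericyte gene, was listed at 0 in knockout replicates 1 and 3 and was at 0.44 FPKM in replicate 2. Pdgfrb, a receptor gene that also marks these cells, fell in the same libraries.

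Of 10 megakaryocyte genes 7 fell as deposited and 1, Pf4, rose, with 3 lower after median-ratio rescaling and 4 lower without knockout replicate 2. Over all tested genes 59.5% were lower as deposited and 17.1% after rescaling, so these counts are a description. Gp9, a platelet glycoprotein gene, went from 21.6 ± 2.98 to 0.567 ± 0.551 FPKM, and to 0.30 without knockout replicate 3, whereas Pf4, platelet factor 4, was between 63.75 and 152 FPKM in controls and was 172, 727 and 263 in knockout replicates 1 to 3. Pf4 was thus highest in the library in which Vcam1 was highest. Among T and NK cell genes, Prf1, the gene of the pore-forming protein perforin, went from 4.84 ± 2.46 to 31.5 ± 8.83 FPKM.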
